A study of Mus musculus with 4 samples.

Results

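The endothelin axis and the pharyngeal arch genes that lie downstream of it were described here through 8 genes of the 32285 counted in single-cell RNA sequencing of E10.5 mouse hearts. Endothelin-1 (Edn1) is the secreted peptide, endothelin-converting enzyme 1 (Ece1) cuts its precursor to the active form, and Ednra and Ednrb are the receptors. Dlx2, Dlx5, Dlx6 and goosecoid (Gsc) encode homeodomain transcription factors of the pharyngeal arches. The rows were taken by gene symbol, and all 8 symbols were found in every library. The genes were chosen by results of these data, namely the higher Edn1 level of mutant endothelial-like cells and the lower Gsc level of mutant whole libraries, so the values of those 2 contrasts are given as a description and without a test.

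In the embryo, Edn1 made by arch epithelium, arch mesoderm and endothelium signals through Ednra on neural crest cells, and this signal sets the identity of the lower part of the arch. Dlx5 and Dlx6 are turned on by it in the lower part and in turn maintain Hand2 and Gsc, whereas Dlx2 is made along the whole arch and depends less on it. Ednrb binds all endothelins, is known for its role in melanocyte and enteric neural crest, and is also a receptor of endothelial cells. Loss of Edn1, Ece1 or Ednra in mice is known to cause defects of the jaw, the arch arteries and the outflow tract of the heart.

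The Wt group held 2 libraries from wild-type embryos and the Ho group 2 libraries from embryos homozygous for Cyp51 I383V, a missense change in lanosterol demethylase, an enzyme of cholesterol synthesis, made by CRISPR/Cas9. All embryos were of strain C57BL/6J and of the same stage, and no other allele or agent is named. Hearts were digested with collagenase, and red blood cells were lysed before droplets were loaded, and no population was sorted. The labels do not say how many embryos or litters a library held, so p-values measure only the spread between these libraries, which may be technical. Gene counts carry no bases, so the allele itself could not be checked in them.

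After filters and removal of doublets, 8908 cells were used from Wt1, 7154 from Wt2, 6980 from Ho1 and 6126 from Ho2, with 97004419, 105384571, 113596628 and 98459742 UMIs (counted mRNA molecules). The median cell had 10552, 14231, 15663 and 15843 UMIs in the same order, so that Wt1 was the shallowest library per cell. Each pair of libraries shared between 14 and 34 cell barcodes. Ho1 stood apart from the other 3 libraries in Xist, a transcript of the inactive X chromosome of females, at 254 CPM (counts per 1000000 UMIs of the cells summed) against 0.0515 in Wt1, 0.0380 in Wt2 and 0.0203 in Ho2. Ho1 also held few cells of the epithelial-like class and of the mesenchyme marked by Crabp1 or Prrx1, both named next. The main values of that mesenchyme are given with and without Ho1.

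The cells formed 26 clusters, built without the 8 genes, and a cluster was named only from fixed marker sets. Endothelial-like cells carried Cdh5, the cadherin of endothelial junctions, at 285, 268, 272 and 230 CPM of the class in Wt1, Wt2, Ho1 and Ho2, and numbered 822, 1225, 1275 and 720 cells. Cushion-like mesenchyme carried the matrix protein gene Hapln1 at 959, 943, 956 and 1100 CPM in 513, 617, 834 and 421 cells. Epithelial-like cells carried Epcam at 1038 CPM in 407 cells of Wt1, 897 in 166 cells of Wt2 and 983 in 246 cells of Ho2, but Ho1 held 1 such cell and was left out of that class.

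The mesenchyme marked by Crabp1 or Prrx1 held between 76.3% and 91.6% of the UMIs of each of the 4 arch genes in Wt1. In Wt2 and Ho2 most Dlx2 UMIs lay in the Stmn4-led cluster described below. In Wt2 the mesenchyme held 41.3% of the Dlx5, 28.6% of the Dlx6 and 85.5% of the Gsc UMIs, and cardiomyocyte-like cells held 35.7% of the Dlx6 UMIs. In Ho2 the mesenchyme held 62.2%, 41.2% and 75% of the Dlx5, Dlx6 and Gsc UMIs. In Ho1 no more than 9.09% of the UMIs of any of the 4 lay in this mesenchyme. It numbered 2815, 854, 156 and 1085 cells in Wt1, Wt2, Ho1 and Ho2, or 31.6%, 11.9%, 2.23% and 17.7% of the cells of a library. These shares depended on how the class was drawn, with 18.4%, 7.98%, 0.0573% and 4.31% when the libraries were clustered without integration, 28.1%, 7.72%, 0.602% and 8.29% for cells gated by Crabp1 or Prrx1 UMIs, and 46.6%, 18.0%, 5.49% and 23.5% with cells of low depth kept. Wt1 was highest and Ho1 lowest in each, and Ho2 lay below Wt2 without integration. Its Crabp1 level was 643, 264, 97.1 and 155 CPM and its Prrx1 level 100.4, 32.7, 19.8 and 28.6 CPM in the same order. Tfap2b, a marker of arch neural crest mesenchyme, stood at 7.45 CPM in Wt1 and 0.120 in Ho2, and had no UMI in Wt2 or Ho1. The class was made up of 4 clusters led by Foxf1, Tac2 or 9130024F11Rik, and it is called by its markers and not as arch tissue. Of the 156 cells of Ho1, 94 belonged to the cluster led by Tac2. In Ho1 the class also carried Hapln1 at 105 CPM and the cardiomyocyte gene Tnnt2 at 500 CPM, against 5.10 to 8.24 and 25.7 to 117 in the other libraries.

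A cluster led by Nts and another led by Stmn4 met no naming rule and are called by their leading gene. The Nts-led cluster had Cdh5 at 291, 338, 245 and 329 CPM in 402, 485, 474 and 347 cells. The Stmn4-led cluster had Crabp1 at 173, 133, 124 and 182 CPM in 524, 430, 231 and 226 cells. Prrx1 stood there at 74.2, 77.2, 64.1 and 64.2 CPM, and both spread less between libraries than in the Crabp1 or Prrx1 mesenchyme. Cardiomyocyte-like and epicardial-like cells completed the classes compared.

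On GRCm38, Edn1 (ENSMUSG00000021367) lies at chr13:42301476-42307990 on the plus strand and Ece1 (ENSMUSG00000057530) at chr4:137862237-137965229 on the plus strand. Ednra (ENSMUSG00000031616) lies at chr8:77663031-77724464 and Ednrb (ENSMUSG00000022122) at chr14:103814625-103844402, both on the minus strand. Dlx2 (ENSMUSG00000023391) lies at chr2:71543408-71546754 and Gsc (ENSMUSG00000021095) at chr12:104471209-104473330, both on the minus strand. Dlx6 (ENSMUSG00000029754) at chr6:6863334-6868568 on the plus strand and Dlx5 (ENSMUSG00000029755) at chr6:6877805-6882085 on the minus strand are a pair of neighbours that face each other with 9236 bp between them. The antisense transcript Dlx6os1 at chr6:6820189-6871592 overlaps Dlx6 on the other strand, and since the strand setting of the counting is not given in the sources used here, reads of Dlx6 and Dlx6os1 are taken as uncertain between them.

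The promoters of Edn1 and Gsc are shown because Edn1 and Gsc are the genes whose contrasts the choice of the set rests on. They are the 250 bases before the RefSeq start on GRCm38.p6, from chr13:42301226-42301475 on the plus strand for Edn1 and from chr12:104473237-104473486 on the minus strand for Gsc, and capitals mark matches to CACCC, the core letters read by KLF factors, on either strand (GGGTG on the other).
Edn1 promoter: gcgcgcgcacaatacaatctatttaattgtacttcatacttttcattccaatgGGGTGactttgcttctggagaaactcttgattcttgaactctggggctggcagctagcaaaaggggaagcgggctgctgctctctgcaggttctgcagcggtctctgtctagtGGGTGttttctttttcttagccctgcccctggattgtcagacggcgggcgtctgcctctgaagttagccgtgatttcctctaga
Gsc promoter: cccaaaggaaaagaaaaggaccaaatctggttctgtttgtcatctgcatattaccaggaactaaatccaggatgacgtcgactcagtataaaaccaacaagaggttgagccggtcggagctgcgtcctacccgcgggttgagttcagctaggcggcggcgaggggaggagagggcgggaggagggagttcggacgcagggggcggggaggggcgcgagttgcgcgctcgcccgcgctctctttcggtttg
The Edn1 window held 2 matches, which began at positions -197 and -84 from the start, and the Gsc window held none. CACCC or its reverse GGGTG stood in 52.0% of 32851 promoters of this length, so a match is common. Neither window held AGATAA or TTATCT, letters read by GATA factors and found in 9.99% of promoters, nor TAATTA, letters read by homeodomains and found in 4.84%. A match is a description of the sequence, and these data hold no measure of binding.

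Edn1 was most abundant where cells carried Cdh5 or Hapln1. Averaged over the 4 libraries, it reached 217 CPM in the Nts-led cluster, 107 in cushion-like mesenchyme and 67.3 in endothelial-like cells, and no library of one of these overlapped the range of the next. The Stmn4-led cluster followed with 57.0 CPM, within the range of endothelial-like cells. Epithelial-like cells had 24.5 CPM over 3 libraries, epicardial-like cells 23.5 and the Crabp1 or Prrx1 mesenchyme 11.5, with ranges that overlapped. Cardiomyocyte-like cells had the lowest mean, 6.93 CPM, within the range of that mesenchyme. The cell names and these levels come from the same cells, so the order is a description.

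**Figure D1:**
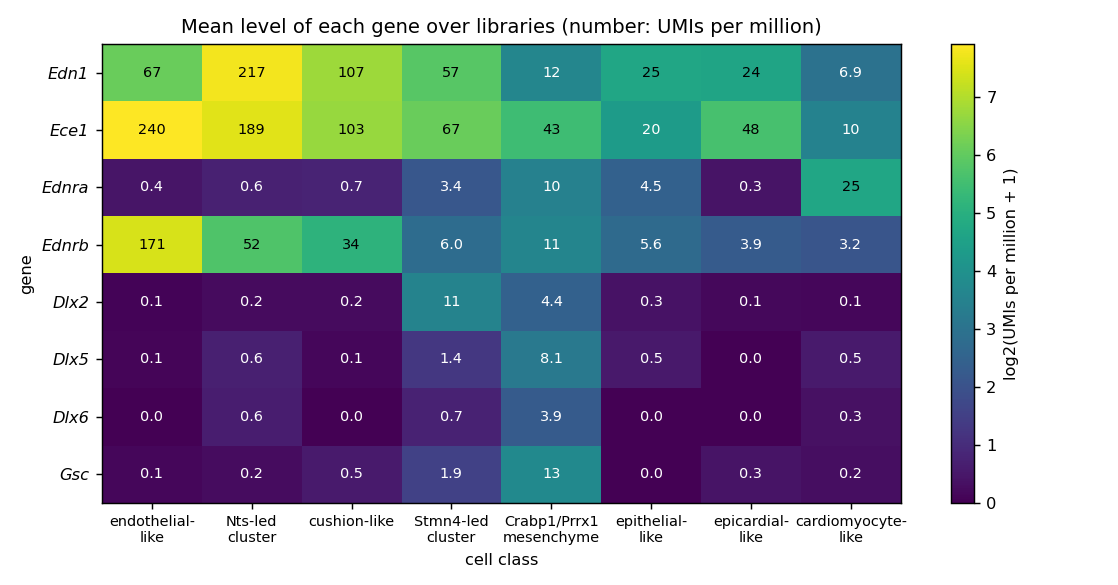
Mean level of each of the 8 genes (rows) in 8 cell classes (columns), with CPM of the class written in each cell and log2(CPM + 1) as colour, averaged over 4 libraries (3 for epithelial-like cells). Reading along a row, Edn1 was highest in the Nts-led cluster, Ece1 and Ednrb in endothelial-like cells, Ednra in cardiomyocyte-like cells, Dlx2 in the Stmn4-led cluster, and Dlx5, Dlx6 and Gsc in the Crabp1 or Prrx1 mesenchyme. These are ranks of means, and single libraries can differ. In Wt1, Dlx2 had 10.7 CPM in that mesenchyme and 9.92 in the Stmn4-led cluster. In Ho2, Dlx6 had 0.841 CPM in that mesenchyme and 1.07 in the Nts-led cluster.

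Ece1 was spread over the same classes as its substrate, with a different order. It averaged 240.5 CPM in endothelial-like cells, 189 in the Nts-led cluster, 103 in cushion-like mesenchyme and 67.3 in the Stmn4-led cluster, and the libraries of these 4 did not overlap. Epicardial-like cells (47.9 CPM) and the Crabp1 or Prrx1 mesenchyme (43.0) overlapped each other, epithelial-like cells had 19.5 CPM over 3 libraries, and cardiomyocyte-like cells had 10.3 CPM. Across 26 clusters the genes with the pattern most like Ece1 were Fn1 (Pearson r = 0.96), Ebf1 (0.95) and Hdac7 (0.94), and those most like Edn1 were Iffo2 (0.94), Enc1 (0.91) and Plcd1 (0.91), among 16510 genes compared over all cells of a cluster. These coefficients share libraries, depth and cells and carry no test.

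The receptors split between classes. Ednrb was a gene of endothelial-like cells, at 171 CPM, and these cells held between 66.8% and 78.7% of all its UMIs in a library. It fell to 51.9 CPM in the Nts-led cluster and 33.9 in cushion-like mesenchyme, whose ranges overlapped, and stood at 3.25 CPM in cardiomyocyte-like cells. Ednra was the converse, with 24.8 CPM in cardiomyocyte-like cells, 10.1 in the Crabp1 or Prrx1 mesenchyme and 0.361 in endothelial-like cells. Cardiomyocyte-like cells held 51.7%, 71.1%, 81.7% and 66.9% of the Ednra UMIs of Wt1, Wt2, Ho1 and Ho2. A smaller part lay in the Crabp1 or Prrx1 mesenchyme. The genes most like Ednra over clusters were Slc2a4 (r = 0.94), Hdac5 (0.93) and Kcnh2 (0.91), and those most like Ednrb were Calcrl (0.94), Gm30648 (0.93) and Cd93 (0.93).

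Edn1 in endothelial-like cells, the contrast by which it was chosen, had 48.3 and 59.2 CPM in Wt1 and Wt2 and 77.5 and 84.0 CPM in Ho1 and Ho2. The groups did not overlap, and Ho was higher, with means of 80.8 ± 4.64 against 53.8 ± 7.75 for Wt (SD, n = 2 each) and a ratio of 1.50. Of 12993 genes tested in these cells, 11.6% had the same order of the libraries, and 0% (0 genes) passed an adjusted p of 0.05 in edgeR's quasi-likelihood test, with 706 at an unadjusted p under 0.05 and 16 called by DESeq2. Since the contrast chose the gene, nothing is read from these shares.

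The 3 endothelial-like clusters, whose sum is the contrast given above, had the same order and add no support of their own. The share of genes with that order was not counted per cluster. The cluster led by Ifi211 had 41.9 and 53.1 CPM in Wt1 and Wt2 against 78.5 and 76.8 in Ho1 and Ho2, the cluster led by Clec4g had 50.2 and 58.8 against 77.0 and 94.2, and the cluster led by Cldn5, a gene of vascular endothelium, had 54.6 and 72.7 against 75.4 and 85.1. In the Nts-led cluster the level was 204 and 183 CPM in Wt against 241 and 240 in Ho, a ratio of 1.24. That order held for 13.4% of 11379 genes, and 0% passed there (455 at an unadjusted p under 0.05, 0 by DESeq2). The Nts-led cluster also carried Cdh5, and at a resolution of 0.4 its counterpart was named endothelial-like. Its values are thus not separate from the contrast that chose the gene and add no support of their own. With every cell thinned to 2000 UMIs, an Edn1 UMI was found in 7.35% and 9.71% of endothelial-like cells of Wt1 and Wt2 and in 12.8% and 12.8% of those of Ho1 and Ho2. Cardiomyocyte-like cells, the class with the lowest mean level, gave 2.21%, 0.970%, 1.23% and 1.63% in the same order. The endothelial-like shares lay above these in every library, and how much of either is free RNA was not tested.

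**Figure D2:**
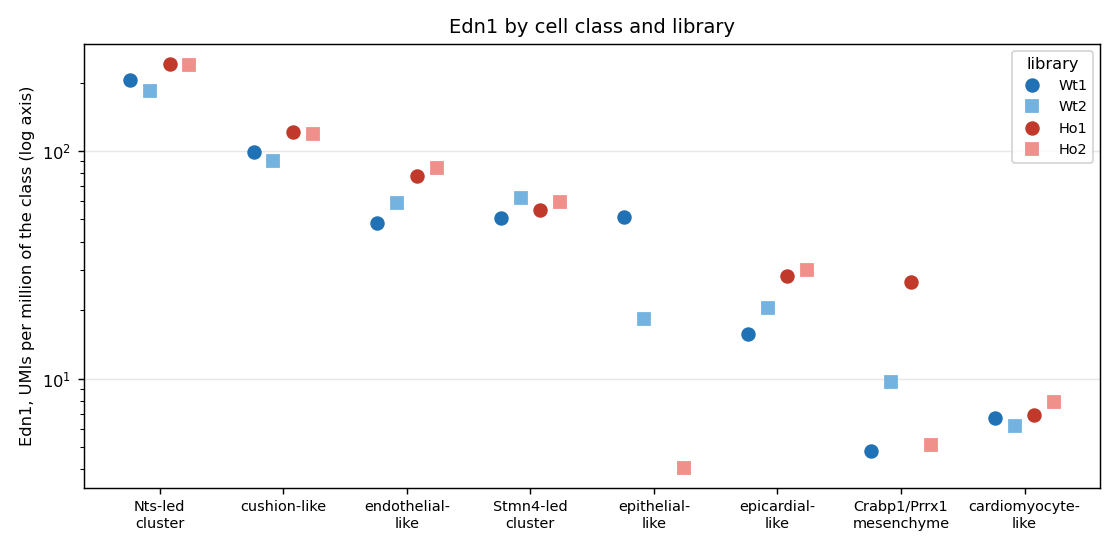
Edn1 in CPM of the class (log axis) by cell class, with 1 point per library (circles for replicate 1, squares for replicate 2, blue for Wt, red for Ho). Both Ho points lie above both Wt points in the Nts-led cluster, cushion-like, endothelial-like, epicardial-like and cardiomyocyte-like cells, an order that 11.6% to 17.1% of all genes tested had in these classes, whereas in epithelial-like cells the 1 Ho library lies lowest at 4.06 CPM.

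Klf2 and Klf4, transcription factors that respond to blood flow, are given beside Edn1 in these cells and were picked from 9 regulators after their values were seen. Klf4 had 6.53 and 9.62 CPM in Wt1 and Wt2 and 15.4 and 14.0 in Ho1 and Ho2, a ratio of 1.82, and Klf2 had 157 and 181 against 190 and 229, a ratio of 1.24. None of the 9 regulators passed in these cells, and as values of the contrast that chose Edn1 these are a description. The other axis genes did not share that order in endothelial-like cells: Ece1 had 244, 244, 247 and 227 CPM and Ednrb 153, 188, 168 and 175 in Wt1, Wt2, Ho1 and Ho2, with overlapping groups. Ece1 differed by a ratio of 0.971 and Ednrb by 1.00 between the group means.

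Whether the genotypes differed in the axis outside the endothelium was tested in 6 classes, each with an edgeR fit over all genes. In cushion-like mesenchyme Edn1 had 99.3 and 90.2 CPM in Wt1 and Wt2 and 121 and 119 CPM in Ho1 and Ho2. The Ho libraries lay close together and above the Wt libraries, at 120 ± 1.53 against 94.8 ± 6.41 (SD, n = 2 each). The log2 fold change was 0.35 (SE 0.09), and edgeR's test over all genes gave an unadjusted p of 0.00154 and an adjusted p of 0.292, which did not pass. Of 11954 genes, 17.1% had that order, and 8 genes (0.0669%) were called, none of them among the 8 described here.

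Endothelial genes moved with Edn1 in the cushion-like cells. Cdh5 had 44.1, 44.3, 60.4 and 58.3 CPM in Wt1, Wt2, Ho1 and Ho2, and the 8 endothelial markers, all detected in every library and led by Egfl7, summed to 446, 458, 500 and 543 CPM. Their part in the result was not tested. Both clusters of the class had the order of the sum, with 120 and 109 in Wt1 and Wt2 against 145 and 135 in Ho1 and Ho2 for the one led by Rtn1, and 70.9 and 61.6 against 79.5 and 87.0 for the one led by Papss2. The share of thinned cells with an Edn1 UMI was 15.9% and 16.2% in Wt against 17.3% and 18.8% in Ho. Ednrb in this class rested on Wt1, with 21.0 CPM there and 36.8, 40.1 and 37.8 in Wt2, Ho1 and Ho2 (log2 fold change 0.42, SE 0.18, edgeR adjusted p = 0.713), and among the settings run it was called only without Wt2 (0.88, edgeR adjusted p = 0.000341), where Wt1 stood alone and the Ho libraries gave the spread. Without Wt1 the log2 fold change was 0.12.

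In epicardial-like cells Edn1 had 15.6 and 20.5 CPM in Wt1 and Wt2 and 28.2 and 29.9 in Ho1 and Ho2. The groups did not overlap, as was so in this direction for 13.2% of 10401 genes, and the log2 fold change of 0.68 (SE 0.20) did not pass in edgeR (adjusted p = 0.489), where 11 genes (0.106%) were called. Of the 8 endothelial markers, 7, 7, 8 and 7 were detected in Wt1, Wt2, Ho1 and Ho2, they summed to 115, 120, 113 and 101 CPM with Egfl7 as the most abundant, and Cdh5 was near 0 at 0.505, 1.60, 4.59 and 0.243. The 8 cardiomyocyte markers, led by Myl7, summed to 4190, 3187, 5344 and 4675 CPM and were higher in Ho, and their part was not tested. Cardiomyocyte-like cells themselves had Edn1 at 6.71, 6.19, 6.93 and 7.88 CPM, an order that 16.4% of genes shared (log2 fold change 0.21, SE 0.14, edgeR adjusted p = 0.740, with 10 of 14077 genes, 0.0710%, called).

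In epithelial-like cells the Ho library was the lowest, an order that 44.1% of all genes tested there had. Edn1 had 51.3 CPM in Wt1, 18.2 in Wt2 and 4.06 in Ho2, from 231, 27 and 15 UMIs. The Wt libraries themselves differed, and the log2 fold change of -3.03 (SE 0.66) did not pass in edgeR with 2 Wt libraries against 1 Ho library (adjusted p = 0.0818), where 55 of 11938 genes (0.461%) were called. The spread in that fit comes from the Wt libraries alone, and the Ho library is assumed to vary like them. Ece1 had the same order, common as it was, with 20.7, 30.3 and 7.58 CPM (log2 fold change -1.55, SE 0.46, edgeR adjusted p = 0.305).

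The kind of epithelium differed between these libraries. Pax9, a gene of pharyngeal pouch endoderm, had 85.3, 8.75 and 3.79 CPM in Wt1, Wt2 and Ho2, whereas Shh, a signal of foregut epithelium, had 32.0, 55.9 and 150 and Nkx2-1, a gene of lung and thyroid buds, 22.2, 96.9 and 122. The part of this makeup in the Edn1 values was not tested. Of the 2 epithelial-like clusters, the one led by Epcam and Shh had Edn1 at 56.2, 19.6 and 3.93 CPM in Wt1, Wt2 and Ho2, and the one led by Foxe1 and Pax8, genes of the thyroid, had 12.1, 16.8 and 5.17. Thinned cells with an Edn1 UMI made up 8.79%, 1.86% and 0.823%, against 2.21%, 0.970% and 1.63% of cardiomyocyte-like cells of the same libraries. At 5000 UMIs a cell they made up 16.3%, 9.86% and 1.26% against 3.44%, 2.73% and 3.75%. The Wt libraries thus lay above the share of cardiomyocyte-like cells and Ho2 below it.

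In the Stmn4-led cluster no gene of the axis passed the test. Edn1 had 51.0, 62.4, 55.1 and 59.5 CPM in Wt1, Wt2, Ho1 and Ho2 (log2 fold change 0.06, SE 0.13, edgeR adjusted p = 0.969) and Ece1 66.4, 65.2, 67.6 and 70.0 (0.10, SE 0.11). None of 11306 genes (0%) was called there by edgeR or DESeq2, and 599 had an unadjusted p under 0.05.

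In the Crabp1 or Prrx1 mesenchyme the Edn1 value turned on Ho1. Edn1 had 4.82, 9.66, 26.4 and 5.10 CPM in Wt1, Wt2, Ho1 and Ho2, so that Ho1 alone was high, and the log2 fold change of 0.98 (SE 0.76, edgeR adjusted p = 1.00) became -0.43 without Ho1. Ednrb had 3.44, 5.90, 23.9 and 11.4 CPM, where Ho2 too lay above the Wt libraries (1.87, SE 0.43, edgeR adjusted p = 1.00, and 1.36 without Ho1). Ho above Wt was the order of 13.2% of the genes tested there. The direction of Ednrb turned to -0.39 when the libraries were clustered without integration and to -0.44 when cells were gated by Crabp1 or Prrx1 UMIs, where Ho1 had 4 and 42 cells and was left out of the fit. Ho1 was also highest in the 8 endothelial markers, which summed to 75.6, 112, 152 and 95.8 CPM with all 8 detected and Egfl7 as the most abundant, in the 7 cushion markers (365, 467, 891 and 223, led there by Cthrc1) and in the 8 cardiomyocyte markers (335, 1034, 3368 and 895, led there by Myl7). Their part in these values was not tested. None of 13027 genes (0%) was called in this class by edgeR, 405 had an unadjusted p under 0.05, and DESeq2 called 41.

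**Figure D3:**
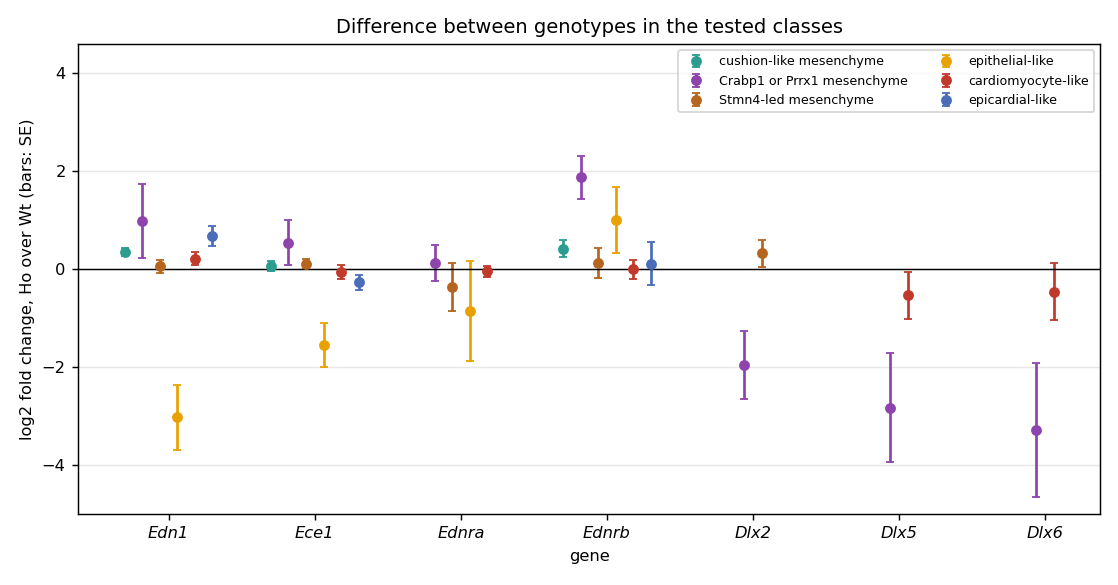
Log2 fold change of Ho over Wt (points) with its SE (bars) from edgeR for each gene but Gsc that passed the filter on low counts in 6 classes, shown by colour. Edn1 was between 0.35 and 0.68 in cushion-like and epicardial-like cells and -3.03 in epithelial-like cells, Dlx5 and Dlx6 of the Crabp1 or Prrx1 mesenchyme carried the longest bars, and none of the points passed an adjusted p of 0.05.

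Ednra, the receptor of the arch mesenchyme, had 6.34, 13.3, 10.2 and 10.6 CPM in the Crabp1 or Prrx1 mesenchyme and 27.4, 23.3, 22.3 and 26.2 in cardiomyocyte-like cells, with log2 fold changes of 0.13 (SE 0.37) and -0.05 (SE 0.11), and the groups overlapped in both. An interaction fit asked whether the difference between genotypes was unequal in the Crabp1 or Prrx1 mesenchyme and the cushion-like mesenchyme. It called 0 of 13114 genes (0%), with 332 at an unadjusted p under 0.05, and gave 0.43 (SE 0.83) for Edn1, 0.47 (SE 0.55) for Ece1 and 1.39 (SE 0.54, edgeR adjusted p = 1.00) for Ednrb.

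Dlx2, Dlx5, Dlx6 and Gsc had few UMIs in the Ho libraries and, but for Gsc, in Wt2. In whole libraries Gsc, which was chosen for this contrast, had 490 and 394 UMIs in Wt1 and Wt2 and 19 and 68 in Ho1 and Ho2, or 5.05, 3.74, 0.167 and 0.691 CPM, a ratio of Ho to Wt of 0.0976. On the log2 scale the fitted difference was -3.34, with -2.67 once Ho1 and -4.61 once Ho2 was left out. Dlx5 had 994, 75, 20 and 74 UMIs, Dlx2 489, 110, 49 and 99, and Dlx6 522, 28, 11 and 34. Wt2 thus resembled the Ho libraries in the 3 Dlx genes and Wt1 in Gsc. None of 16978 genes (0%) was called in whole libraries by edgeR, with 786 at an unadjusted p under 0.05 and 21 called by DESeq2. The amount of Crabp1 or Prrx1 mesenchyme in a library and the level of a gene in it cannot be told apart there.

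Within the Crabp1 or Prrx1 mesenchyme, Dlx5 had 26.1 and 3.15 CPM in Wt1 and Wt2 and 0.509 and 2.76 in Ho1 and Ho2, from 911, 31, 1 and 46 UMIs. Wt1 held nearly all of the UMIs, and Wt2 and Ho2 were close. Dlx2 had 10.7, 3.76, 1.02 and 2.28 CPM, where the Ho libraries were the lower ones without overlap, as was so for 13% of 13027 genes. Dlx6 had 13.3, 0.813, 0.509 and 0.841 CPM, where Wt2 lay below Ho2. The 1 or 2 UMIs of each Dlx gene in Ho1 are counts within the limit of 3 that a count of 0 allows.

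The log2 fold changes were -1.96 (SE 0.69) for Dlx2, -2.83 (SE 1.12) for Dlx5 and -3.29 (SE 1.38) for Dlx6, and none passed in edgeR (adjusted p = 1.00 each). Without Ho1 they were -1.72, -2.50 and -3.18, and without Ho2, which leaves Ho1 and its 1 or 2 UMIs of each gene, -2.96, -4.995 and -3.97. Without Wt1 they were -0.90 for Dlx2 and -0.54 for Dlx5, and Dlx6 no longer passed the filter on low counts. Without Wt2 they were -2.56, -3.67 and -4.17, and Dlx5 and Dlx6 were called in edgeR (adjusted p = 0.00436 and 0.00364), where Wt1 stood alone against the Ho libraries, which gave the spread, and where Dlx6 passed the filter through its level in Wt1. Dlx2 turned to 0.29 when the libraries were clustered without integration and Ho1 was left out. Marker levels of the class moved in the same direction, with Crabp1 and Prrx1 highest in Wt1 as given above, and their part was not tested.

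Gsc in the same cells had 12.4 and 34.3 CPM in Wt1 and Wt2 and 0.509 and 3.06 in Ho1 and Ho2, from 431, 337, 1 and 51 UMIs. In the Wt libraries 88.0% and 85.5% of the Gsc UMIs lay in this class, so its values here follow the contrast that chose it and are given without a test. The fitted log2 fold change was -3.19, and it was -2.84 without Ho1, -5.495 without Ho2, -3.75 without Wt1 and -2.50 without Wt2. Wt2 was the highest library for Gsc and Wt1 the highest for the Dlx genes, so the 2 Wt libraries did not rank the arch genes alike. By cluster, Gsc was highest in the one led by 9130024F11Rik and Gsc, at 22.5 CPM in Wt1, 72.9 in Wt2 and 5.70 in Ho2.

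**Figure D4:**
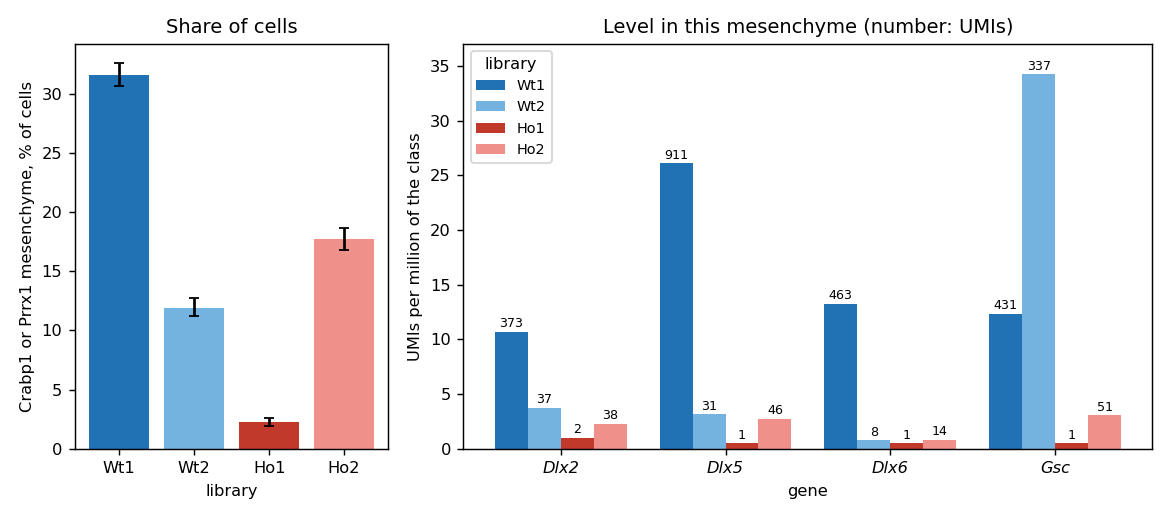
Left, the Crabp1 or Prrx1 mesenchyme as a percentage of the cells of each library, with bars for exact 95% binomial intervals. Right, Dlx2, Dlx5, Dlx6 and Gsc in CPM of the class, with the number of UMIs above each bar; Wt1 stands out for the 3 Dlx genes and Wt2 for Gsc, and Ho1 has 1 or 2 UMIs of each gene.

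The Stmn4-led cluster gave a view of Dlx2 and Gsc in a mesenchyme whose Crabp1 and Prrx1 levels differed less. Dlx2 had 9.92, 8.99, 8.27 and 14.9 CPM in Wt1, Wt2, Ho1 and Ho2 (log2 fold change 0.32, SE 0.27, edgeR adjusted p = 0.915), with overlapping groups. Gsc had 20, 23, 0 and 6 UMIs, or 2.87, 3.23, 0 and 1.57 CPM, so that the groups did not overlap and Ho was lower, at a low count, an order that 21.6% of 11306 genes had there. It passed the filter through the Wt libraries, and as the gene chosen for being lower in Ho it is given without a test. Dlx5 had 12, 15, 2 and 5 UMIs there and did not pass the filter. In cardiomyocyte-like cells Dlx5 had 9, 18, 12 and 17 UMIs, which were 60% of the Dlx5 UMIs of Ho1 and 0.905% of those of Wt1.

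Detection of these genes in the same cells was counted next. In thinned cells of the Crabp1 or Prrx1 mesenchyme, 50 cells of Wt1 had a Dlx2 UMI, and 6 of them (12%) also had a Dlx5 or Dlx6 UMI, whereas none of 5 cells of Wt2 (exact 95% upper bound 52.2%) and none of 9 of Ho2 (33.6%) did, and Ho1 had no Dlx2 cell. At full depth the shares were 164 of 297 cells (55.2%, exact 95% interval 49.4% to 61.0%) in Wt1, 3 of 35 (8.57%) in Wt2, 0 of 2 in Ho1 (upper bound 84.2%) and 0 of 34 in Ho2 (upper bound 10.3%). Over all cells of the class, 19.9%, 3.63%, 1.28% and 3.96% had a Dlx5 or Dlx6 UMI in Wt1, Wt2, Ho1 and Ho2, so that Wt1 was highest in both measures. Among Dlx2 cells the share of Wt1 lay above its share over all cells, and the intervals of Wt2 (1.80% to 23.1%), Ho1 and Ho2 included theirs. No p is given, since with 2 Wt and 2 Ho libraries the smallest that an exact permutation allows is 0.333.

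Gsc and the Dlx genes were seldom read in the same cell. Of the cells with a Gsc UMI at full depth, 31 of 254 (12.2%) in Wt1, 18 of 183 (9.84%) in Wt2, 0 of 1 in Ho1 and 5 of 37 (13.5%) in Ho2 also had a UMI of Dlx2, Dlx5 or Dlx6. Over all cells of the class the share with such a UMI was 24.6%, 7.38%, 2.56% and 7.10%, which lay above the exact 95% interval of the Gsc cells in Wt1 (8.45% to 16.9%) and within it in Wt2 (5.93% to 15.1%) and Ho2 (4.54% to 28.8%). The number of Gsc UMIs per Dlx UMI was 0.247, 4.43, 0.250 and 0.520 at full depth, so that Wt2 alone was high. In thinned cells it was 0.408 in Wt1, 6.30 in Wt2 and 0.529 in Ho2, and Ho1 had no UMI of these genes. Without integration over libraries a cluster led by Dlx5 held 1180, 238, 1 and 105 cells and a cluster led by 9130024F11Rik and Gsc held 457, 333, 3 and 159. In the former, Dlx5 had 48.2 CPM in Wt1, 2.53 in Wt2 and 4.24 in Ho2, and Gsc 9.73, 44.2 and 11.1, so that Dlx5 led it through Wt1. In the latter, Gsc had 36.5, 46.1 and 8.40 CPM and Dlx2 10.7, 9.43 and 22.1, and in Wt2 both clusters held Gsc at a similar level.

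The patterns over clusters paired the arch genes with one another and with positional genes. Over 26 clusters Dlx5 was most like Rgs5 (r = 0.90), its neighbour Dlx6 (0.89) and Tbx4 (0.89), and Dlx6 was most like Dlx5 (0.89), Gsc (0.84) and Lix1 (0.83). Dlx2 was most like Mab21l1 (0.94), Gm30692 (0.93) and Dlx1 (0.92), the last a neighbour of Dlx2. Gsc was most like Hoxd3 (0.98), Colec10 (0.97) and Hoxd4 (0.96). These are descriptions over clusters that share libraries and depth.

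Further genes of the pathway were taken from 5 lists, and Evf1 alone of their names was not found in the files. The list of ligands and processing enzymes holds the other endothelins Edn2 and Edn3, the convertases Furin, Pcsk5, Pcsk6 and Pcsk7 that cut the precursor before Ece1 does, Ece2, Ecel1 and Mme, a peptidase that degrades endothelin. None of those that passed the filter was called in any class, with 4 of 9 tested in cushion-like cells, 7 in the Crabp1 or Prrx1 mesenchyme, 5 in the Stmn4-led cluster, 6 in epithelial-like cells, and 5 each in cardiomyocyte-like and epicardial-like cells. In cushion-like cells Furin had 54.4, 60.4, 73.0 and 65.6 CPM in Wt1, Wt2, Ho1 and Ho2 (log2 fold change 0.28) and Pcsk5 47.2, 52.1, 37.4 and 40.8 (-0.35), neither of which passed in edgeR. Furin in the Stmn4-led cluster had 30.5, 31.2, 55.1 and 33.9 (0.58), where Ho1 was high. Mme was highest in the Crabp1 or Prrx1 mesenchyme, with a mean of 39.5 in Wt and 18.8 in Ho, and Edn2 in epicardial-like cells had 7.07, 5.06, 8.88 and 11.9 (0.88, SE 0.32, edgeR adjusted p = 0.736).

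The list of signal genes holds G protein subunits and phospholipases through which the receptors act, Mef2c, a transcription factor that mediates the endothelin signal in neural crest, and the regulators Rgs3 and Rgs5. None was called, with 11 of 11 tested in cushion-like and cardiomyocyte-like cells and 9 or 10 in the other classes. Medians lay near that of all genes, at 0.10 against 0.00 in cushion-like cells and -0.06 against 0.00 in the Crabp1 or Prrx1 mesenchyme. Mef2c was most abundant in cardiomyocyte-like cells, with a mean of 192 CPM in Wt and 198 in Ho, and Gna11 in endothelial-like cells, with 139 and 124. Rgs5 had 4.08, 4.04, 1.70 and 2.77 CPM in cushion-like cells (-0.92) and 26.5, 12.5, 2.67 and 12 in cardiomyocyte-like cells (-1.44), the lowest in Ho1 in both, and did not pass in either.

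Among the distal and middle arch targets, genes turned on by endothelin signalling or marking the same domains, 10 of 17 passed the filter in the Crabp1 or Prrx1 mesenchyme and none was called. Their median log2 fold change was -1.16 against 0.00 for all genes tested (-1.11 without Ho1, -1.95 without Ho2, -0.91 without Wt1 and -1.66 without Wt2, over the 11 to 13 that then passed the filter), 3 were lower at an unadjusted p under 0.05, Msx2 among them, and 1 was higher, Osr1, a limit met in either direction by 3.11% of all genes tested. Osr1 had 12, 15.2, 20.9 and 81.5 CPM in Wt1, Wt2, Ho1 and Ho2 and was high in Ho2. Hand2, the arch factor best known to follow Dlx5 and Dlx6, had a mean of 147 in Wt and 96.4 in Ho, and Hand1 176 and 63.4. The Ho means of this class, also for Mme above and for the proximal genes below, include Ho1 and are not given without it.

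The neighbours of the Dlx genes were also highest in Wt1. Dlx1 had 11.0, 0.610, 0 and 1.56 CPM in that class and the antisense Dlx6os1 6.85, 0.508, 0 and 0.180, each with most of its level in Wt1. In cushion-like cells Hand1 had 2.47, 2.39, 1.21 and 0.875 (-1.14, SE 0.38, edgeR adjusted p = 0.545), and Msx1 was the most abundant target there, with a mean of 171 in Wt and 192 in Ho. Barx1 had 17.8, 12.1, 4.40 and 10.1 in cardiomyocyte-like cells (-1.05, SE 0.29, edgeR adjusted p = 0.338) and 1.01, 3.19, 8.27 and 4.61 in epicardial-like cells (1.41, SE 0.48, edgeR adjusted p = 0.658). In epithelial-like cells Hand2 had 7.33, 3.37 and 0.542 in Wt1, Wt2 and Ho2 (-3.19), from 33, 5 and 2 UMIs.

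Genes of the proximal arch, which endothelin signalling keeps out of the lower arch, had a median below 0 as well. Of 7, 6 passed the filter in the Crabp1 or Prrx1 mesenchyme and none was called. Of the 6, 3 were lower at an unadjusted p under 0.05, Meis2 and Eya1 among them. That limit was met in either direction by 3.11% of all genes tested there. The median log2 fold change of the 6 was -0.52 (-0.31 without Ho1, -0.95 without Ho2, -0.78 without Wt1 and -0.16 without Wt2). Meis2 had a mean of 302 CPM in Wt and 200.1 in Ho, and Jag1 93.1 and 64.0. Nr2f1 was the converse there, with a mean of 39.8 in Wt and 52.3 in Ho, and had 4.08, 4.36, 1.86 and 2.33 in cushion-like cells (-1.03, SE 0.30, edgeR adjusted p = 0.431). Meis2 in the Stmn4-led cluster had 253, 201, 157 and 186 (-0.37), without overlap, the order of 21.6% of genes there. The proximal and the distal list thus stood beside lower Crabp1 and Prrx1 in the Ho libraries, and the part of these markers in either median was not tested.

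The endothelial regulators were transcription factors known to act on Edn1 or on endothelial identity, and the enzyme gene Nos3. All were measured in cushion-like cells, where 9 of 9 passed the filter and none was called. Among them, 4 were higher at an unadjusted p under 0.05, a limit met in either direction by 6.73% of all genes tested. The median log2 fold change of the list was 0.31 against 0.00 for all genes. Cdh5 and the sum of the 8 endothelial markers were also higher in the Ho libraries of this class, with the values given above beside Edn1 (446 and 458 against 500 and 543 CPM for the sum), and their part was not tested. Klf4 had 20.1, 22.8, 30.2 and 35.7 CPM in Wt1, Wt2, Ho1 and Ho2 (0.61, SE 0.13, edgeR adjusted p = 0.165) and Klf2 125, 166, 153 and 244 (0.44, SE 0.17, edgeR adjusted p = 0.657), the latter with overlapping groups. Fos in epicardial-like cells had 55.5, 128, 98.3 and 218 (0.76, SE 0.27, edgeR adjusted p = 0.699), and Jun was most abundant in endothelial-like cells at a mean of 425 in Wt and 419 in Ho.

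GATA genes of this list varied by class. Gata6 was the 1 gene of the 5 lists that was called, in epithelial-like cells, with 3.78, 10.8 and 42.2 CPM in Wt1, Wt2 and Ho2 (log2 fold change 2.88, SE 0.47, edgeR adjusted p = 0.0133, with the spread of the Wt libraries alone), beside the higher Shh and Nkx2-1 of Ho2 given above. In cushion-like cells its mean was 135 in Wt and 133 in Ho. Gata4 had 2.58, 17.5, 97.6 and 35.1 in the Crabp1 or Prrx1 mesenchyme (2.80, SE 0.89, edgeR adjusted p = 1.00), highest in Ho1 together with the cardiomyocyte markers, and 82.6, 92.0, 127 and 101 in the Stmn4-led cluster (0.43, SE 0.14, edgeR adjusted p = 0.893). Gata2 in cardiomyocyte-like cells had 2.63, 1.63, 0.946 and 1.35 (-0.83, SE 0.30, edgeR adjusted p = 0.511).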

How the data were processed

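Single-cell RNA sequencing of E10.5 hearts gave 2 Wt and 2 Ho libraries, grouped from the sample labels. UMI counts per gene and cell were deposited by the authors for barcodes called as cells, without normalization, and the submitters' processing notes name Cell Ranger 6.1.1, Seurat 4.1.0 and GRCm38. The libraries held 109893733 (Wt1), 117034633 (Wt2), 127018819 (Ho1) and 107377100 UMIs (Ho2). The strand setting of the counting is not given in the sources used here.

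Barcodes were kept with at most 20% mitochondrial UMIs, 500 to 50000 UMIs and 500 to 6000 genes. Doublets were scored with Scrublet, and the barcodes with the highest scores were removed (746, 464, 440 and 334). Their number was fixed by an expected rate of 0.008 per 1000 barcodes, so it followed the size of the library. Scrublet's automatic limit called 298, 218, 378 and 147. Cells were normalized with SCTransform and integrated in Seurat 5.3.0 on 3000 genes without the 8 described, and clustered in scanpy 1.11.5 with the Leiden algorithm on 30 components at a resolution of 0.8. A class name needed at least 3 markers raised 2 times. Clusters whose median UMI count was under 0.333 of that of their own libraries were set apart, whatever their leading genes (23.1%, 17.2%, 14.5% and 13.5% of cells). Low-depth cells with Crabp1 among the 10 leading genes of their cluster were thus left out of the Crabp1 or Prrx1 mesenchyme. They made up 15.0%, 6.02%, 3.25% and 5.83% of the cells of Wt1, Wt2, Ho1 and Ho2.

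UMIs were summed per library and class, and CPM are UMIs per 1000000 of that sum. The sums were tested in R 4.3.3 by the quasi-likelihood test of edgeR 4.0.16 after TMM normalization and filterByExpr, with p-values adjusted by Benjamini-Hochberg and a threshold of 0.05. A library with fewer than 50 cells of a class was left out of its fit. The study tested cells, which are not replicates, so sums were used instead. Cell shares carry Clopper-Pearson 95% intervals, which like the limit of 3 counts for a 0 cover counting error only. In simulated sums with 200 changed genes, edgeR recovered, at a log2 change of 1, 169 in cushion-like cells and 19 in the Crabp1 or Prrx1 mesenchyme, and 159 in the latter at 2.

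The genes and lists were chosen with earlier results of these data known. Named genes were the 8, and of the lists each gene called, the 3 with the largest change at an unadjusted p under 0.05 in each class and the 3 of each list with the highest CPM, and genes named beside these (markers, Klf2, Klf4, Dlx1, Dlx6os1, Msx2, Eya1 and Osr1) were added after their values were seen. A few genes that the rule names are not reported here. The low-depth limit and the use of the Nts-led and Stmn4-led clusters were also set after seeing the data. Positions are those of GENCODE M21, and promoters, found for 6 of the 8 genes, are from RefSeq. Alternatives were DESeq2 1.42.0, RLE normalization, other filters, a block for the replicate number, fits without each library in turn, other clusterings, a marker gate and thinned sums.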

Additional observations from a re-analysis of the deposited data

Results flagged for a closer look

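Edn1 had differences of opposite sign in different classes. In cushion-like mesenchyme (log2 fold change 0.35) and in epicardial-like cells (0.68) the Ho libraries were the higher ones without overlap, whereas the 1 Ho library of epithelial-like cells lay below both Wt libraries (-3.03), as was so for 44.1% of the genes tested there against 17.1% and 13.2% with the former order in the other 2 classes. The difference between these classes was not tested, and none of the 3 passed an adjusted p of 0.05 in the main edgeR fits. Settings in which Edn1 did pass are listed in the next section. The epithelial-like value rests on 15 UMIs in Ho2 and on the spread of the Wt libraries alone.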

How the results depend on the processing

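Alternatives were counted for genes other than Gsc with a mean of at least 5 CPM in Wt or Ho of a tested class. Fold changes of genes below that level were left out of the count. Over the 23 log2 fold changes kept, 329 of 352 alternatives kept the direction, 23 in 10 results reversed it and 14 passed an adjusted p of 0.05, and the cause was not tested. Those 14 were, with no filter, Edn1 in cushion-like and epithelial-like cells and Ednrb and the 3 Dlx genes in the mesenchyme, with the numbers crossed, Ednrb, Dlx5 and Dlx6 there, without Wt2, Dlx5 and Dlx6 there and Ednrb in cushion-like cells, and with doublets kept and no integration, and in thinned sums, Edn1 in epithelial-like cells. Reversals outside leave-one-out were, with no integration, Ednrb -0.39 and Dlx2 0.29 in the Crabp1 or Prrx1 mesenchyme, Ednrb -0.32 in the Stmn4-led cluster and Ece1 0.0439 in cardiomyocyte-like cells, with doublets kept and no integration together, Edn1 -0.48 and Ednrb -0.41 in the mesenchyme, with the marker gate, Edn1 -0.37 and Ednrb -0.44 there and Ece1 -0.0174 in cushion-like cells, and at resolutions of 0.4 and 1.2, Ece1 0.0305 and 0.000705 in cardiomyocyte-like cells and -0.0397 at 1.2 in cushion-like cells. Leaving out a library gave -0.43 to 1.87 for Edn1 and -0.27 to 0.61 for Ednra in the mesenchyme, -0.0667 to 0.193 for Ece1 in cushion-like cells, -0.0682 to 0.186 for Edn1, -0.21 to 0.38 for Ednrb and -0.14 to 0.67 for Dlx2 in the Stmn4-led cluster, and -0.229 to 0.0818 for Ece1 and -0.170 to 0.0655 for Ednra in cardiomyocyte-like cells. Genes called in cushion-like cells (8) became 169 with no filter, 1 at resolution 0.4, 2 with no integration, 2 when doublets were also kept without integration, 0 with the marker gate and 31 to 81 without a library. In the mesenchyme (0) there were 333 with no filter, 41 with DESeq2 and 0 to 57 without a library (57 without Wt2), and in the Stmn4-led cluster (0) 8 to 711. Epithelial-like cells (55) had 225 with no filter, 3 with at least 10 UMIs in every library, 17 with DESeq2, 32 with no integration and 167 when doublets were also kept, and leaving out a library there left 1 Wt against 1 Ho library or no Ho library, which gives no test. Cardiomyocyte-like cells (10) had 288 with no filter, 24 with DESeq2, 0 at resolution 1.2, 0 with no integration, 0 when doublets were also kept and 59 to 447 without a library. Epicardial-like cells (11) had 83 with no filter, 5 with at least 10 UMIs, 5 with DESeq2, 2 with no integration, 2 when doublets were also kept, 2 in thinned sums and 13 to 82 without a library. The interaction had 0 without any 1 library. The labels name no litter or day for a replicate number, and same-numbered libraries did not deviate together (correlations of -0.50 in whole libraries and -0.34 in the mesenchyme). With the replicate number as a block, 10 genes were called in cushion-like, 9 in cardiomyocyte-like and 106 in epicardial-like cells and 0 in the mesenchyme and the Stmn4-led cluster, and with the numbers crossed, a pairing chosen after seeing the data, 36, 295, 59, 81 and 4. No paired analysis was possible for epithelial-like cells because Ho1 was left out. The share of cushion-like cells with an Edn1 UMI was 2.01 percentage points higher in Ho (1.24 to 2.78 without a library), 5.54 when thinned to 5000 UMIs and 6.97 with no thinning, and that of cardiomyocyte-like cells differed by -0.16 (-0.78 to 0.46 without a library) and 1.90 with no thinning. Dlx5 or Dlx6 among Dlx2 cells differed by -6.00 percentage points and by -31.9 with no thinning. Both values rested on Wt1, with 12% there and 0% in Wt2 and Ho2 in thinned cells. With no thinning the share was 55.2% in Wt1 and 8.57% in Wt2. The depth of the Ho1 mesenchyme, 156 cells with 1 or 2 UMIs of each arch gene, limits the comparisons of the arch genes in that class.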

Other observations

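Within the cardiomyocyte-like cells, Ednra was not evenly spread. A cluster led by Ap3b2 had 37.7, 33.2, 34.2 and 35.6 CPM in Wt1, Wt2, Ho1 and Ho2, with all 4 libraries close, and the cluster led by Myl2 had 19.8, 17.5, 18.2 and 22.5, below every library of the former. The small cluster led by Bmp2, a signal of the atrioventricular canal, had 45.5 and 34.1 in the Wt libraries. In the Ho libraries it had 22.5 and 20.1, from 26, 42, 76 and 39 UMIs over the 4 libraries, and this difference was not tested. The share of all genes with that order was not counted in this cluster. Over all cardiomyocyte-like cells it was 19.6% of the genes tested, and the groups overlapped for Ednra there. An unnamed cluster led by Calca had 27.4, 28.7, 25.3 and 27.5.

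In the Myl2-led cluster Edn1 was low, at 4.62 and 5.10 CPM in Wt1 and Wt2 and 7.88 and 8.12 in Ho1 and Ho2. It did not share that order in the Ap3b2-led cluster, with 4.93, 5.86, 4.46 and 5.08. The share of all genes with that order was counted only over all cardiomyocyte-like cells, at 16.4%, and the difference in the Myl2-led cluster was not tested. An unnamed cluster led by Smoc2, which also carried the pacemaker channel gene Hcn4 among its leading genes, had Edn1 at 26.2, 30.6, 31.3 and 37.2 and Ednrb at 14.1, 19.5, 17.1 and 32.6. Epithelial-like cells were also the class with the most Edn3, the ligand of Ednrb in neural crest, among those given here, at 24.7, 20.2 and 10.3 in Wt1, Wt2 and Ho2 (log2 fold change -1.0, SE 0.45, edgeR adjusted p = 0.884).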
